A study of Bos taurus with 64 samples.

Results

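ABRA and ABLIM3 were followed cow by cow in the skeletal muscle of Normand cull cows. The members were the probes that the array files name ABRA or ABLIM3, which gave 2 genes with a single probe each among the 5478 transcripts on the array. They were selected on the stress difference of each muscle, stressed minus limited stress, as earlier results of these data gave it, so that difference is described here without a test.

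RNA came from 2 muscles of the same 32 adult cows, the longissimus thoracis of the back (LT) and the semitendinosus of the hind limb (ST), on 64 arrays. Before slaughter 16 cows were handled with limited stress, carried in company and led calmly, and 16 were stressed by transport alone followed by a labyrinth with noisy handlers, a condition that the labels call moderated stress. All cows ate a lipid-rich ration, which was the control diet for 8 cows of each stress group and was supplemented with vitamin E and polyphenol-rich plant extracts (EP diet) for the other 8. The groups were therefore LT or ST, limited stress or stress, control or EP diet, with 8 cows in each. Whole muscle was sampled, so fewer cells of a type and less RNA per cell cannot be told apart.

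ABRA, also called STARS, is an actin-binding protein of the sarcomere. It favours the assembly of actin filaments, which frees myocardin-related transcription factors from monomeric actin so that they can act with serum response factor (SRF) in the nucleus. In skeletal and heart muscle ABRA is known as a transcript that follows mechanical load and exercise. ABLIM3 belongs to the actin-binding LIM proteins, which bind filamentous actin, and is a known binding partner of ABRA.

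Each value rests on 60-base oligonucleotides, and the bases are shown because they set which transcript was read. On the bovine build Btau_3.1 named in the array files, the ABRA probe lies at chr14:55620979-55621038 and the ABLIM3 probe at chr7:60026662-60026721. Of the ABRA probe, which has stop codons in each of its 3 forward reading frames, the first 30 bases are given, and the ABLIM3 probe, open in 2 of the 3 frames, is given whole. Lower case is used throughout because no base is singled out.
ABRA: gacccactcttgtcttaatgctaaatgcta
ABLIM3: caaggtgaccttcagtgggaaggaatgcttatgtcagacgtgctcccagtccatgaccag
The ABRA and ABLIM3 probes shared no run longer than 6 bases, and the longest run that the ABRA or ABLIM3 probe shared with any other probe of the array was 14 bases for ABRA and 13 for ABLIM3. Whether a probe lies in a coding or an untranslated exon is not given in the sources used here.

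ABRA was a bright feature and ABLIM3 a dim one. The deposited signal of ABRA ranged from 3800 to 24218 intensity units and was well above background on all 64 arrays. The signal of ABLIM3, the mean of its 2 spots, ranged from 15.6 to 164 units with a median of 36.3, and both spots were well above background on 62 arrays. The 2 ABLIM3 spots of an array differed by a median of 0.15 in log2, and the SD that this spot error gives the mean of both was 0.20, against an SD between cows of a group of 0.47. Levels are given below as the log2 of the signal over the array's 75th percentile of all spots, so that 0 is the level of that percentile and a step of 1 is a doubling. The levels of the 2 genes are not set against each other, since probes differ in brightness for reasons other than transcript abundance.

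Over the series, 10439 probes were tested in the LT and 10303 in the ST, and 71.4 to 80.9% of the spots were well above background on each array. The animal cow321, a stressed cow on the control diet, stood apart in both muscles, with a median correlation with the other arrays of its muscle of 0.968 in each, while all other arrays had 0.980 or more. Muscle fibre markers were present in both muscles, with 7 of the 8 listed genes on the array and all 7 tested. The marker lists were muscle fibre, slow fibre, fast fibre, smooth muscle and pericyte, endothelium, fibroblast, fat cell, blood and immune cell. None of the tested marker genes was called for stress in either muscle. Endothelium and immune cell each had only 1 of 5 listed genes tested in each muscle. Blood had 1 of 5 tested in the LT and 0 in the ST, so these lists say little. The summed muscle fibre level ranged from 239 to 309 in the LT with limited stress and from 231 to 289 in the stressed LT, as multiples of the 75th percentile. In the ST the sums ranged from 273 to 332 and from 245 to 341. The summed level of the 4 smooth muscle and pericyte genes ranged from 2.74 to 7.04 and, in stressed cows, from 2.74 to 11.3 in the LT, with medians of 3.89 and 5.06. In the ST these ranges were 1.58 to 14.9 and 2.07 to 9.30, with medians of 3.23 and 2.95. The part of cell composition in the results below was not tested.

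ABRA was higher in the stressed cows than in the cows handled with limited stress, in both muscles and on both diets. In the LT of the 16 limited stress cows, the lowest ABRA level was 0.22, the median 0.73 and the highest 1.20, and in the 16 stressed cows they were 0.89, 1.72 and 2.07. The groups overlapped little, since every stressed cow (16 of 16) exceeded the limited stress median and 14 exceeded the highest limited stress cow. The stressed cows below that highest value were cow303 at 0.89 and cow265 at 1.003. The difference was 0.92 in log2 (SE 0.108), a 1.89-fold higher level in stressed cows. Of all probes tested in the LT, 4.38% were called for stress in either direction and 2.48% were called higher in stressed cows, at an adjusted p under 0.1. As the contrast chose ABRA, nothing is read from that background.

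In the ST the ABRA levels of the limited stress cows reached from 0.35 through a median of 0.85 to 1.36, and those of the stressed cows from 0.70 through 1.38 to 2.68. The groups overlapped more than in the LT, with 14 of the 16 stressed cows above the limited stress median and 8 above the highest limited stress cow. The highest level was that of cow321, and cow265, which was among the lowest stressed cows in the LT, was the lowest in the ST. The difference was 0.58 (SE 0.140), or 1.49-fold, and it was 0.50 (SE 0.120) without cow321. In the ST 4.23% of the tested probes were called for stress and 1.59% were called higher in stressed cows.

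**Figure D1:**
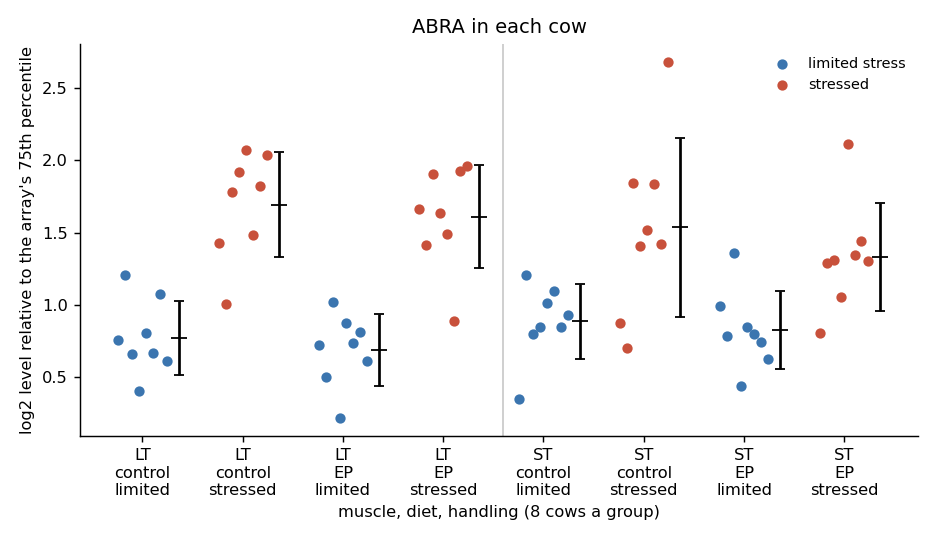
ABRA level of each cow (points), as log2 relative to the 75th percentile of the array, for 8 groups of 8 cows by muscle, diet and handling, with the group mean and SD as black bars. In the LT 14 of 16 stressed cows lie above every limited stress cow, and in the ST 8 of 16, the highest being cow321 at 2.68.

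The difference in ABRA had the same sign in every slide. Each slide carried arrays of a single muscle, with unequal numbers of stressed and limited stress cows on most. Within the 4 LT slides the stressed cows exceeded the limited stress cows by 0.56, 1.15, 0.83 and 1.16 in log2, in slide order 5 to 8. Within the 5 ST slides the differences were 0.20, 0.34, 0.68, 0.60 and 0.84 for slides 1, 2, 3, 4 and 9, of which slide 4 held a single stressed cow and slide 9 a single limited stress cow. With the slide as a block in the fit the differences were 0.93 (SE 0.113) in the LT and 0.54 (SE 0.172) in the ST.

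ABLIM3 showed no such separation. In the LT its level in the limited stress cows had a lowest value of -7.68, a median of -6.76 and a highest value of -6.15, and in the stressed cows -7.11, -6.53 and -6.03. The groups overlapped over most of their range, since 13 of the 16 stressed cows were above the limited stress median but only cow297 was above the highest limited stress cow. The difference was 0.23 (SE 0.123), a 1.17-fold level, and it was 0.18 (SE 0.139) from 1 spot alone and 0.28 (SE 0.137) from the other. In the ST the limited stress cows reached from -7.02 through -6.15 to -4.94 and the stressed cows from -7.20 through -6.38 to -4.52. The ST groups overlapped throughout, with 5 of the 16 stressed cows above the limited stress median. On the EP diet 7 of 8 stressed cows were above the limited stress median of that diet, and on the control diet 2 of 8. The difference in the ST was -0.0022 (SE 0.190), with medians that differed by -0.22, and it was -0.12 (SE 0.159) without cow321.

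The extreme ABLIM3 levels of the ST belonged to single cows. The animal cow321 had -4.52, and its 2 spots read 158 and 170 intensity units. The animal cow267, a limited stress cow on the EP diet, had -4.94, but its spots read 166 and 48.8 units, the widest gap of all arrays at 1.76 in log2. Only 2 of the 64 arrays had ABLIM3 spots more than 2-fold apart. In the LT of the same cows the ABLIM3 levels were -6.33 for cow321 and -6.63 for cow267, both within the range of their groups.

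**Figure D2:**
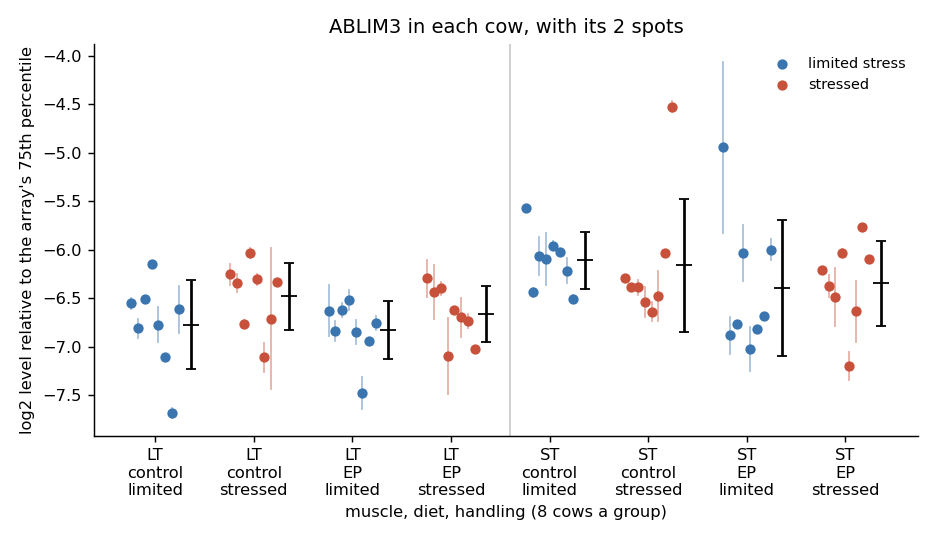
ABLIM3 level of each cow (points, mean of 2 spots), as log2 relative to the 75th percentile of the array, for 8 groups of 8 cows, where each thin vertical line joins the cow's 2 spots and black bars give the group mean and SD. The stress groups overlap in both muscles, and the highest points of the ST are cow321 at -4.52 with close spots and cow267 at -4.94 with spots 1.76 apart.

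Within slides the ABLIM3 difference changed sign. It was 0.25, -0.17, 0.57 and 0.30 in LT slides 5 to 8, and -0.64, 0.22, -0.43, 0.71 and 0.048 in ST slides 1, 2, 3, 4 and 9.

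**Figure D3:**
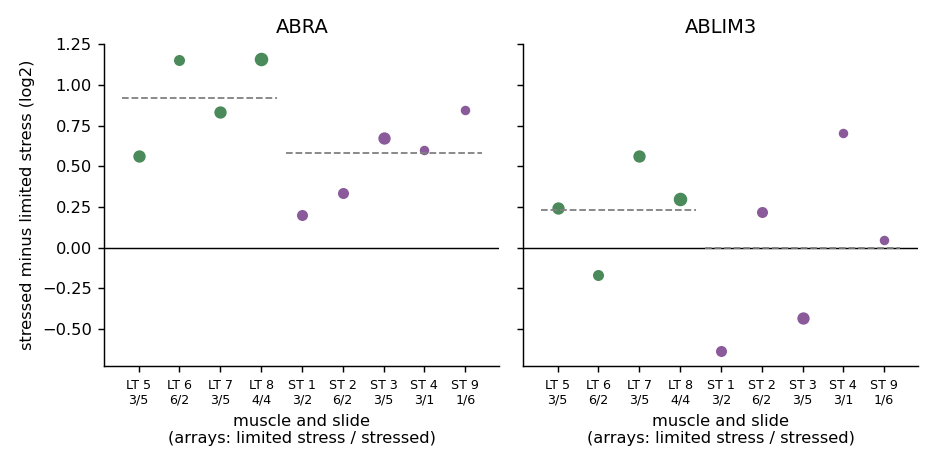
Mean log2 level of stressed cows minus that of limited stress cows within each slide for ABRA (left) and ABLIM3 (right), with LT slides in green, ST slides in purple, larger points where the smaller group of the slide has more arrays, and the pooled difference of each muscle as a dashed line. All 9 ABRA points lie above 0, from 0.20 to 1.16, whereas ABLIM3 points lie on both sides, from -0.64 to 0.71.

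Whether the antioxidant diet went with another level of either gene was tested with limma over all probes of a muscle, since the diet took no part in the choice of the genes. Under the EP diet ABRA had a mean level of 0.69 ± 0.25 (SD, n = 8) in the LT with limited stress against 0.77 ± 0.26 under the control diet, and 1.61 ± 0.36 against 1.69 ± 0.36 in the stressed LT. The EP minus control difference was -0.084 in the LT (SE 0.108, limma adjusted p = 0.999) and -0.13 in the ST (SE 0.140, limma adjusted p = 0.949). For ABLIM3 it was -0.12 in the LT (SE 0.123, limma adjusted p = 0.995) and -0.24 in the ST (SE 0.190, limma adjusted p = 0.949). Each of these 4 differences was smaller than the SD between cows, and no probe of the array (0%) was called for diet in either muscle, with 407 LT probes and 531 ST probes at an unadjusted p under 0.05.

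In the LT the stress difference of ABRA was 0.92 (SE 0.153) under the EP diet and 0.92 (SE 0.153) under the control diet. Their difference, the stress by diet interaction, was 0.0007 with an SE of 0.217 and a limma adjusted p of 0.9999. With control feature scaling the values were 0.59 (SE 0.224) under the EP diet and 0.90 (SE 0.224) under the control diet, with an interaction of -0.31 (SE 0.316, limma adjusted p = 0.821). In the ST the stress difference was 0.51 (SE 0.198) under the EP diet and 0.65 (SE 0.198) under the control diet, with an interaction of -0.14 (SE 0.280, limma adjusted p = 0.979). Without cow321 the control diet value fell to 0.49 (SE 0.172). For ABLIM3 the interaction was -0.13 in the LT (SE 0.246, limma adjusted p = 0.9999) and 0.10 in the ST (SE 0.380, limma adjusted p = 0.989). No probe (0%) was called for the interaction in either muscle, and 2.63% of the LT and 4.77% of the ST probes had an unadjusted p under 0.05.

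The level of each gene was then compared between the muscles of the same cows. Within a stress group, LT minus ST holds part of the difference between the muscles' stress effects, on which the genes were selected. The adjusted p given below for a single stress group carry that limit and are no independent test. The contrast over both stress groups, given first, took no part in the choice of members. ABLIM3 was lower in the LT than in the ST by 0.43 in log2 (SE 0.115, limma adjusted p = 0.0012), and ABRA did not differ beyond the spread, at 0.046 (SE 0.089, limma adjusted p = 0.687). Those SEs, and the ones below given without a block, come from a fit that treats the 64 arrays as independent. With the cow as a block the SE was 0.103 for ABLIM3 (limma adjusted p = 0.0005) and 0.067 for ABRA (limma adjusted p = 0.556). Muscle differences were common on this array, with 58.2% of 10252 probes called and 31.6% lower in the LT, so a call for muscle was shared by more than 1 in 2 probes. No slide and no scan day held arrays of both muscles, so a muscle difference cannot be told apart from a slide or scan day difference. ABLIM3 was called with slide as a random block (-0.45, SE 0.149, limma adjusted p = 0.0131). It was also called with the cow and the slide as blocks (-0.44, SE 0.155, limma adjusted p = 0.0186). Such blocks cannot remove a difference that all arrays of a muscle share, and scan day was not fitted for this contrast. The ABLIM3 call was lost when arrays were scaled by the median of the control features, at -0.25 (SE 0.168, limma adjusted p = 0.266). With normexp background correction and quantile normalization it passed but was much smaller, at -0.15 (SE 0.051, limma adjusted p = 0.0097), and -0.19 in limited stress cows (limma adjusted p = 0.0269).

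Among limited stress cows, 13 of 16 had more ABLIM3 in the ST than in the LT, with LT minus ST values from -1.68 in cow267 through a median of -0.46 to 0.17. The mean was -0.55 (SE 0.162, limma adjusted p = 0.0056, with 44.0% of probes called and 24.2% lower in the LT), and with control feature scaling it was -0.23 (limma adjusted p = 0.469). Among stressed cows, 10 of 16 had more ABLIM3 in the ST, from -1.81 in cow321 through a median of -0.079 to 0.57. The mean was -0.32 (SE 0.162, limma adjusted p = 0.124, with 42.0% of probes called), and it passed the threshold with the cow as a block (limma adjusted p = 0.0703) but not with the slide added (0.213) or without cow321 (-0.21, 0.278).

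For ABRA the limited stress cows had LT minus ST values from -0.44 through -0.17 to 0.41, with 12 of 16 cows higher in the ST. Their mean was -0.12 (SE 0.126, limma adjusted p = 0.467), and it turned positive with control feature scaling at 0.20 and without scaling at 0.060. The stressed cows had values from -0.64 in cow321 through a median of 0.44 to 0.86, and 11 of 16 were higher in the LT. Their mean was 0.22 (SE 0.126, limma adjusted p = 0.183), and it passed the threshold with the cow as a block (SE 0.094, limma adjusted p = 0.0554) and without cow321 (0.27, limma adjusted p = 0.0636), but not with the cow and the slide as blocks (0.24, limma adjusted p = 0.122).

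In the order of group means, ABRA was highest in the stressed LT (1.65 ± 0.35, SD, n = 16), followed by the stressed ST (1.43 ± 0.50), the ST with limited stress (0.86 ± 0.26) and the LT with limited stress (0.73 ± 0.25), and over all cows the LT and ST passed the test in neither stress group without a cow block. ABLIM3 was highest in both ST groups, at -6.25 ± 0.54 with limited stress and -6.25 ± 0.56 in stressed cows, followed by the stressed LT (-6.57 ± 0.32) and the LT with limited stress (-6.80 ± 0.37). In the ST the ABLIM3 groups had equal means to 2 decimals.

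**Figure D4:**
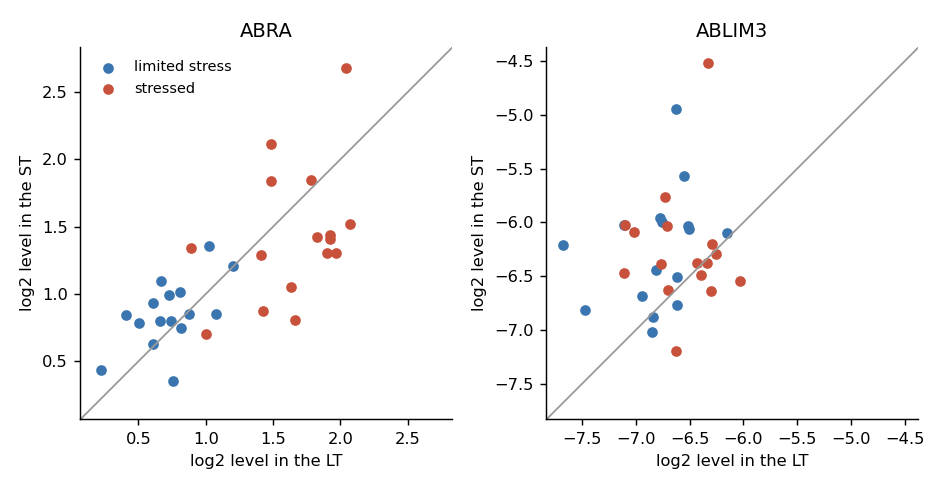
Log2 level in the ST against that in the LT of the same cow for ABRA (left) and ABLIM3 (right), each relative to the array's 75th percentile, with 1 point per cow and a grey line of equal levels. For ABRA 11 of 16 stressed cows lie below the line (LT higher) and 12 of 16 limited stress cows above it, and for ABLIM3 13 limited stress cows and 10 stressed cows lie above it.

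The stress difference of ABRA was larger in the LT than in the ST by 0.34 in log2 (SE 0.179), and that of ABLIM3 by 0.23 (SE 0.229). These values are the differences between the muscles' stress effects on which the genes were selected, so they are given as a description with no test. With control feature scaling they were 0.068 for ABRA and -0.041 for ABLIM3.

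Across cows, no relation between ABRA and ABLIM3 passed the adjusted threshold. Relations were computed over the 16 cows of a stress group, 8 relations in all, with 2-sided permutation tests. In the LT, ABRA with ABLIM3 had a Pearson r of -0.47 (permutation p = 0.0683, adjusted 0.273) and a Spearman coefficient of -0.52 (permutation p = 0.0395, adjusted 0.238) in limited stress cows, and an r of 0.066 (permutation p = 0.807, adjusted 0.923) and Spearman coefficient of 0.094 (permutation p = 0.730, adjusted 0.730) in stressed cows. In the ST, r was -0.21 (permutation p = 0.427, adjusted 0.569) and Spearman coefficient -0.11 (permutation p = 0.680, adjusted 0.730) in limited stress cows, and r was 0.33 (permutation p = 0.201, adjusted 0.402) and Spearman coefficient -0.18 (permutation p = 0.497, adjusted 0.662) in stressed cows. The last relation rested on cow321, since r without that cow was -0.48. Without the 2 cows farthest from the median ABRA level the 4 values of r were -0.53, 0.17, 0.12 and -0.19 in the same order.

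The relation of the 2 genes depended on how the arrays were scaled. With each array divided by the median of its control features, which read only 1.73 to 6.36 units, the 4 values of r became 0.61, 0.66, 0.44 and 0.65, with adjusted permutation p of 0.0298, 0.0239, 0.173 and 0.0239. Both genes of an array share its scaling factor, and the sign of the relation changed with the scale for limited stress cows in both muscles. Within the slides that held 6 arrays of a group, r was -0.44 on LT slide 6 with limited stress (exact permutation p = 0.408), -0.48 on ST slide 2 with limited stress (exact permutation p = 0.479) and 0.83 on ST slide 9 in stressed cows, cow321 among them (exact permutation p = 0.0625). With control feature scaling the same r were 0.0099 (exact permutation p = 0.983), 0.47 (exact permutation p = 0.353) and 0.88 (exact permutation p = 0.0139).

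Between the LT and the ST of the same cow, no relation passed the adjusted threshold. For ABRA the r was 0.56 (permutation p = 0.0236, adjusted 0.189) and a Spearman coefficient of 0.47 (permutation p = 0.0693, adjusted 0.238) in limited stress cows, and it was 0.38 (permutation p = 0.142, adjusted 0.379) with a Spearman coefficient of 0.44 (permutation p = 0.0893, adjusted 0.238) in stressed cows. Without the 2 cows farthest from the median these r were 0.28 and 0.26. Leaving out such cows narrows the range of levels, which can itself lower r. It therefore cannot show whether the relation in limited stress cows rested on them. For ABLIM3 the r was 0.295 (permutation p = 0.265, adjusted 0.423) with a Spearman coefficient of 0.38 (permutation p = 0.152, adjusted 0.305) in limited stress cows, and 0.0027 (permutation p = 0.993, adjusted 0.993) with a Spearman coefficient of -0.21 (permutation p = 0.437, adjusted 0.662) in stressed cows. Without the 2 farthest cows the ABLIM3 r were 0.29 and 0.0039. With control feature scaling the r in limited stress cows fell to 0.25 for ABRA (adjusted permutation p = 0.478) and 0.0031 for ABLIM3 (adjusted permutation p = 0.990), and in stressed cows they were 0.27 and -0.067. As LT and ST arrays were on different slides, no slide holds both muscles of a cow.

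Genes known to act with SRF and actin were described from 3 lists, where a call for a gene needs 80% or more of its probes to pass in 1 direction. The lists were chosen with earlier results of these data known. At this rule the stress calls took 3.74% of the 4309 LT genes and 3.61% of the 4244 ST genes, with unnamed custom sequences counted as genes. The called list genes have 1 probe each, so the rule asks less of them than of custom sequences with 5 probes. Over single probes the stress calls took 4.38% in the LT and 4.23% in the ST. The median log2 change over all genes was -0.054 (LT) and -0.062 (ST), and with control feature scaling it moved to -0.23 and 0.034.

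Of the SRF target genes, 18 of 30 were tested, with 1 called higher in each muscle and none lower, and the list median log2 change was 0.062 in the LT and 0.046 in the ST. The called gene was FOS, the immediate early transcription factor, in both muscles. FOS levels in the LT reached from -1.46 through 1.06 to 3.18 with limited stress and from 0.40 through 2.29 to 3.56 in stressed cows, a difference of 1.31 (SE 0.327, limma adjusted p = 0.0182). In the ST they reached from -3.29 through -0.15 to 2.72 and from -0.67 through 1.45 to 2.62, a difference of 1.61 (SE 0.373, limma adjusted p = 0.0118). The FOS groups overlapped over most of their range, with 14 stressed cows in the LT and 15 in the ST above the limited stress median but 1 and 0 above the highest limited stress cow.

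Of the genes of actin filament assembly and capping, 12 of 37 were tested, with median log2 changes of 0.0031 (LT) and -0.10 (ST). TPM4, a tropomyosin that covers non-sarcomeric actin filaments, was the called gene in the LT, at 0.46 (SE 0.120, limma adjusted p = 0.0274), and 15 of 16 stressed cows exceeded the limited stress median. In the ST it was at 0.31 (SE 0.125, limma adjusted p = 0.195), and it was not called in the LT with control feature scaling.

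Of the Z-disc and costamere genes, 15 of 43 were tested, with median log2 changes of 0.058 (LT) and -0.018 (ST). PDLIM5, a PDZ and LIM protein of the Z-disc, was called higher in the LT, at 0.74 (SE 0.210, limma adjusted p = 0.0481), from a dim level with a limited stress median of -8.72. PDLIM7, another member of that family, was called lower in the LT, at -0.27 (SE 0.077, limma adjusted p = 0.0527). Neither was called in the ST, where PDLIM5 was at -0.018 (SE 0.218, limma adjusted p = 0.975) and PDLIM7 at -0.14 (SE 0.073, limma adjusted p = 0.344), and neither was called in the LT with control feature scaling. With the slide as a block PDLIM7 was not called in the LT.

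**Figure D5:**
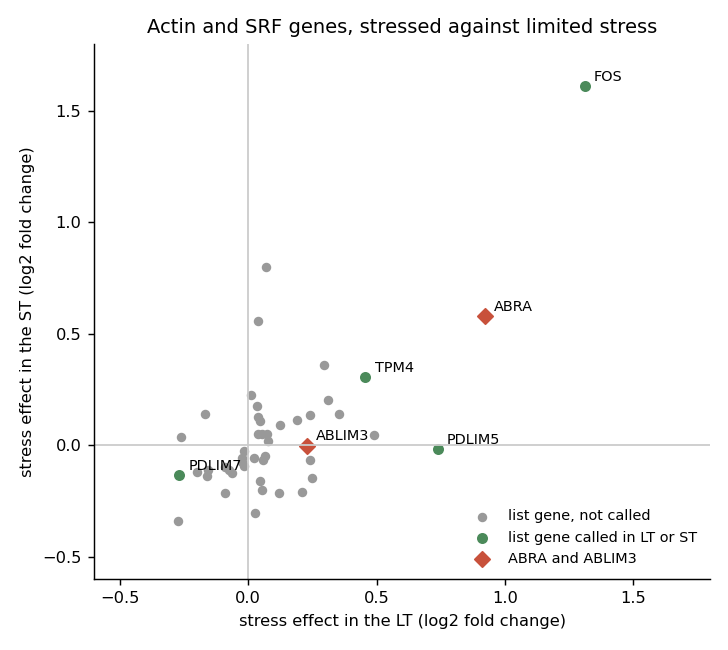
Log2 fold change of stressed over limited stress cows in the LT (x) and the ST (y) for the 45 tested genes of the 3 lists and for ABRA and ABLIM3 (diamonds), from the limma fit of each muscle. FOS, at 1.31 and 1.61, and ABRA, at 0.92 and 0.58, lie far from 0 on both axes, while ABLIM3, at 0.23 and -0.0022, lies among the genes that were not called.

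The transcripts whose levels ran most like ABRA were sought among 4237 others over the 64 arrays, which come from 32 cows and are not independent. As measured, the highest Pearson r was 0.79 for Target1490, a custom sequence with no gene name in the array files, followed by Target867 at 0.73, IFRD1, an interferon-related developmental regulator, at 0.73, Target254 at 0.71 and TC310369 at 0.71, an assembled transcript described as CCAAT/enhancer binding protein delta. These values hold the difference between the stress groups. Whether an unnamed custom sequence such as Target1490 belongs to another gene than ABRA was not tested. The 5 probes of Target254 differed widely among themselves, with stress differences in the LT from 0.031 to 2.71 and only 3 called. Its r thus comes from a mean of unlike probes. After each of the 8 group means was subtracted, the highest values of the transcripts reported here were 0.58 for Target801 and for Target1490, then ASB5 at 0.57, a SOCS box protein, and Target95 at 0.55. Without cow321 these 4 fell to between 0.42 and 0.43.

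For ABLIM3 the leading transcripts reported here, Target5, TC326869 and the unnamed probe A_73_110786, were shared by both rankings. As measured, r was 0.80 for Target5, a custom sequence without a gene name, 0.75 for TC326869, an unnamed assembled transcript, 0.64 for A_73_110786 and 0.63 for DNAJB9, a chaperone of the endoplasmic reticulum. After the group means were subtracted, r was 0.74 for Target5, 0.68 for TC326869, 0.62 for A_73_110786 and 0.56 for Target696. Without cow321 these became 0.67, 0.55, 0.46 and 0.52.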

How the data were processed

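Agilent 1-colour arrays (Cy3) of 32 LT and 32 ST samples were read with Feature Extraction by the authors, and the deposited processed signal is a background-subtracted and detrended intensity, not scaled between arrays, per spot. The value table holds the same intensities as the array files. Per the study's methods, the authors divided arrays by the median of control probes, then each probe by its median over the arrays, and fitted limma with diet, period and stress. Whether the 536 control features of the array files are those control probes is not known. Control feature scaling here may therefore differ from the scaling of the authors. The period is not in the labels and was not used here.

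Signals were divided by each array's 75th percentile over 13414 spots, spots with outlier flags were left out, log2 values of the spots of 1 probe were averaged, and a probe entered the test of a muscle if 11 or more of that muscle's 32 arrays read it well above background. limma 3.58.1 (R 4.3.3) was fitted to the groups of stress and diet in each muscle, or to all 8 groups for LT against ST, with Benjamini-Hochberg adjustment over all tested probes and a threshold of 0.1. Correlations used 100000 permutations (SciPy 1.17.1). The fits were tested on simulated data.

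The members and gene lists were chosen with earlier results of these data known. Besides the members, up to 4 called genes of each list were named (the tested gene with the largest change where none was called), together with the 5 transcripts most like each member. Some of these, and 1 gene list, are not reported here. List genes were matched by array name or RefSeq accession (1920 of 13285 probes had one in the RefSeq table). LT and ST arrays of a cow are of the same animal, and their deviations from the group means correlated at 0.10 to 0.76 (median 0.43) in all 32 cows. Scaling, background correction, the dim-probe filter, the slide, scan day and cow as blocks were varied. The number of arrays limits the precision. Leaving out cow321 and taking each ABLIM3 spot alone were chosen after seeing the data. Promoter and protein sequences were not used here.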

Additional observations from a re-analysis of the deposited data

Results flagged for a closer look

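Of the 16 groups of 8 cows (2 genes, 2 muscles, 2 stress groups and 2 diets), 2 held a cow far from the rest by Dixon's test of the gap over the range, and chance flags about 1 in 20 groups. In the LT of limited stress cows on the EP diet, cow304 had the lowest ABLIM3 level at -7.48, with the nearest cow at -6.95 and a gap of 0.555 of the range. In the ST of stressed cows on the control diet, cow321 had the highest ABLIM3 level at -4.52, with the nearest cow at -6.04 and a gap of 0.714 of the range. No ABRA group held such a cow.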

How the results depend on the processing

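Over 54 results and 368 alternatives, 328 kept their direction and side of the threshold or moved little. The margin for moving little was wide. A stress difference could move by up to the SD between cows of that gene and muscle, even across 0. The ABLIM3 stress difference under the EP diet in the LT, 0.17 as fitted and -0.16 with control feature scaling, thus counted among the 328. So did a rise of the LT probes called for stress from 457 to 679 with the cow as a random block. The stress difference of ABRA stayed between 0.74 and 0.96 in the LT and between 0.50 and 0.73 in the ST, and that of ABLIM3 between 0.052 and 0.28 and between -0.12 and 0.15. Scaling by the median of the control features, which read a few intensity units, gave diet differences in the LT of 0.11 for ABRA and 0.081 for ABLIM3, an ABRA stress by diet interaction in the LT of -0.31, an ABRA stress difference under the EP diet in the LT of 0.59, an ABLIM3 muscle by stress interaction of -0.041, and LT minus ST values of 0.20 for ABRA and -0.23 for ABLIM3 with limited stress and -0.25 for ABLIM3 over both. It gave correlations of ABRA with ABLIM3 of 0.613 and 0.660 in the LT and 0.444 and 0.650 in the ST (limited stress and stressed cows), and of ABLIM3 between muscles of -0.067 in stressed cows. It called 113 probes for stress in the LT (457 as reported), 111 in the ST (436), 860 for LT against ST in stressed cows (4305), and 0 genes of the actin (1) and Z-disc (2) lists in the LT. Without scaling, ABRA LT minus ST with limited stress was 0.060 and 234 ST probes were called for stress. The slide as a block called 150 ST probes for stress, 5 for diet and 1 Z-disc gene in the LT, and scan day as a block 219 and 5. A replicate block for the cow pairs LT and ST of an animal. Under it LT minus ST in stressed cows passed at 0.22 for ABRA and -0.32 for ABLIM3, 19 probes were called for the muscle by stress interaction (0 without the block), also with the slide added, and no other call of either gene changed. The ABLIM3 stress by diet interaction in the ST was -0.045 with normexp and quantile normalization and -0.029 from the first spot, and the second spot alone gave -0.33 for LT minus ST in stressed cows. Leaving out cow321 gave 0.023 for the ABRA stress by diet interaction in the ST, 0.27 for ABRA LT minus ST in stressed cows, 11 probes for the muscle by stress interaction, and correlations of -0.485 for ABRA with ABLIM3 in the stressed ST and -0.280 for ABLIM3 between muscles. Without the 2 farthest cows ABRA with ABLIM3 in the ST was 0.122 with limited stress and -0.191 in stressed cows, and after subtraction of diet means ABLIM3 between muscles was -0.050 in stressed cows. The cause of these changes was not tested. The dim ABLIM3 signal limits that gene more than ABRA.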

Other observations

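The probe nearest to that of ABLIM3 on its chromosome, 71.9 kb away, was TC326869, an assembled transcript without a gene name at chr7:60098518-60098577 (Btau_3.1). TC326869 was also among the transcripts most like ABLIM3, and the coordinates of both probes run in the same order. Whether TC326869 is a separate transcript or part of the ABLIM3 gene is not given in the sources used here and was not tested. TC326869 was far brighter, with a median signal of 807 intensity units. It was lower in the LT than in the ST by 0.45 in log2 (SE 0.092, limma adjusted p = 3.7e-05), and its stress difference was 0.10 in the LT (limma adjusted p = 0.647) and 0.18 in the ST (limma adjusted p = 0.550). All 5 probes of Target5, the custom sequence most like ABLIM3, were lower in the LT, by -0.98 to -0.65, and none was called for stress in either muscle. Whether Target5 is a separate transcript or part of the ABLIM3 gene was likewise not tested.

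The animal cow321, which had the highest ABRA and ABLIM3 of the ST, also had the highest ST level of Target5 (-1.58, next cow -3.21), TC326869 (0.29, next -1.27), A_73_110786 (-3.75, next -6.40) and DNAJB9 (0.31, next -0.65). In its LT it was highest for Target5, TC326869 and DNAJB9 but ranked 30 of 32 for A_73_110786. For Target696, also among the transcripts most like ABLIM3, it ranked 3 in the ST and 13 in the LT.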
